A study of Mus musculus with 6 samples.

Results

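Guanylate-binding proteins (GBPs) and immunity-related GTPases (IRGs) are interferon-inducible GTPases that act inside the cell, and their transcripts were followed here in Th17 cells cultured with or without desIgf1, a shortened form of IGF1 with weak affinity for the binding proteins that hold IGF1 in check. The genes were chosen by family and symbol, as 10 named members (Gbp2 to Gbp9, Irgm1 and Igtp), and matched through the Ensembl mouse identifiers of GENCODE M21. Of the 10, 8 had a row among the 39179 genes of the count files, and all 8 passed the filter on low counts. Gbp5 and Gbp6 had no row under their GENCODE M21 identifiers and were not analysed here. The choice of this family was made with results of the desIgf1 and control libraries known, so differences between these groups in the members are a description and support nothing further.

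There were 3 libraries per group. Both groups came from naive CD4+ T cells of C57BL/6 mice whose Il17a, Ifng and Foxp3 loci reported through human CD2, Thy1.1 and GFP, taken from the spleen. All cultures ran for 5 days with 5 µg/mL soluble anti-CD3, irradiated splenocytes depleted of CD4+ cells, 20 ng/mL IL-6, 2.5 ng/mL TGF-β, and 10 µg/mL each of antibodies against IFN-γ and IL-4. The desIgf1 cultures had 30 ng/mL desIgf1 and the control cultures had none, by the titles and the series design, although the protocol text lists desIgf1 for every library. Cells that carried the Il17a reporter and lacked the Ifng and Foxp3 reporters were sorted, so the libraries describe that fraction of an in vitro culture. Separate animals or cultures are not named for the libraries of a group, and p-values therefore measure the spread between these libraries only.

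As background, IFN-γ acts through its receptor and the kinases JAK1 and JAK2, and the promoters of GBP and IRG genes carry GAS and ISRE elements, with ISRE elements bound by factors such as IRF1. The encoded GTPases assemble on membranes of vacuoles that hold pathogens, and several GBPs promote inflammasome activation. They have mostly been studied in macrophages and fibroblasts, but T cells exposed to interferon express them as well. Mouse GBP genes lie in a cluster on chromosome 3 and another on chromosome 5, and most IRG genes lie on chromosomes 11 and 18.

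Promoter windows show where the interferon elements lie. The table of RefSeq promoters used here (GRCm38.p6, 250 bases before to 50 bases after the start) matched 6 of the 10 members by symbol, with 7 windows in all, and the other members' promoters were not analysed here. The ISRE core was searched as GAAANNGAAA and the GAS element as TTCNNNGAA, both on either strand. All 6 genes had an ISRE match in a window and 3 (Gbp5, Gbp7 and Igtp) had a GAS match as well, where 3.44% of 32851 mouse promoter windows of that length held the ISRE core, 8.30% held the GAS element and 0.45% held both. A match is a run of letters and not a measured binding site. The 120 bases before the start follow for the 5 of these genes that were measured, since they carry the matches nearest to the start, with every match in capitals.
Gbp2, chr3:142620543-142620662, plus strand: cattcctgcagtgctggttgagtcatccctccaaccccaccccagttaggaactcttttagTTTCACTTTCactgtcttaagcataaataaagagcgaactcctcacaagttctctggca
Gbp3, first start, chr3:142559924-142560043, plus strand: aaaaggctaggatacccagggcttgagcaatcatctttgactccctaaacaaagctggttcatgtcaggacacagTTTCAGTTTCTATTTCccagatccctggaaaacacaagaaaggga
Gbp7, chr3:142530216-142530335, plus strand: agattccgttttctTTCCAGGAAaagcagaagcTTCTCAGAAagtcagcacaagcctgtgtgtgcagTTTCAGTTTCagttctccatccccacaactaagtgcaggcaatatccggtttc
Irgm1, chr11:48871421-48871540, minus strand: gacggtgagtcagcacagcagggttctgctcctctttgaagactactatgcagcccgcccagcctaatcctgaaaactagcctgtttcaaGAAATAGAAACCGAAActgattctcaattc
Igtp, chr11:58199436-58199555, plus strand: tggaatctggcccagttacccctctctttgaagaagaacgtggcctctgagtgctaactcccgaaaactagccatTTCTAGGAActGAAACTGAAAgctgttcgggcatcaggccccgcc

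In Gbp2 the single ISRE match lay 59 to 50 bases before the start, on the opposite strand, and no GAS match was in the window. Gbp3 and Irgm1 each held a pair of overlapping ISRE matches, 45 to 30 bases and 30 to 15 bases before the start, on the opposite strand in Gbp3 and on the gene's strand in Irgm1. In Igtp a GAS match at 45 to 37 bases stood just before an ISRE match at 34 to 25 bases. Gbp7 held a pair of GAS matches, at 106 to 98 and 87 to 79 bases, ahead of an ISRE match at 53 to 44 bases. The second RefSeq start of Gbp3 had neither motif in its window.

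**Figure D1:**
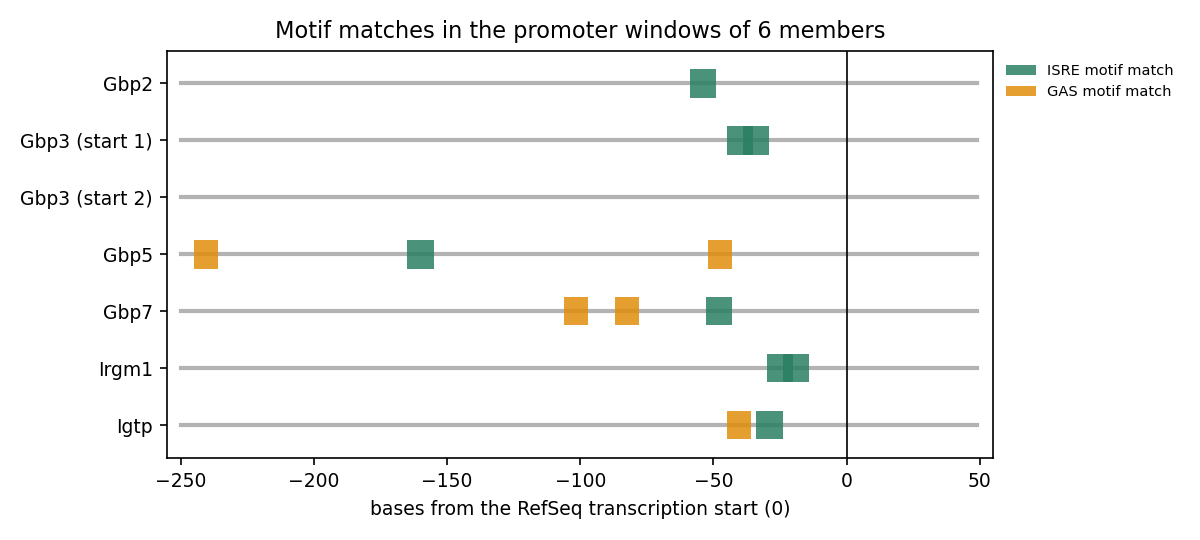
Positions of ISRE (green) and GAS (orange) motif matches in the promoter windows of 6 members; the horizontal axis gives bases from the RefSeq start, from 250 before it to 50 after it, and each grey line is 1 window. Every gene has an ISRE match in a window, and the matches of Gbp2, Gbp3, Irgm1 and Igtp all lie within 60 bases before the start.

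Libraries held 34567899 to 47929948 counts in genes. Titles number them 1 to 3 in each group, and same-numbered libraries deviated together, so differences are also given within numbers as pairs. The main edgeR fit, with its SE and adjusted p, does not use the pairs. Fits with the number as a block are given as alternatives. CPM are counts scaled to a common library size. The first principal component of log2 CPM (43.5% of variance) set the number 3 libraries of both groups, at 27.6 and 60.0, away from the remaining 4, at -25.9 to -19.3. Log2 fold changes of the members and list medians are given below with and without them, and the correlations are given over all 6 libraries only. The libraries held the T cell marker Cd4 at 1657 to 1950 CPM in desIgf1 libraries and 1671 to 1905 CPM in controls. Sums of the Th17 marker genes were 1421 to 1772 CPM with desIgf1 and 1035 to 1220 CPM in controls.

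The mean levels of the GBP members differed in direction between chromosomes 3 and 5, and a part of the chromosome in this was not tested. Gbp2, Gbp3 and Gbp7 of chromosome 3 had lower mean levels with desIgf1, and Gbp4, Gbp8 and Gbp9 of chromosome 5 had higher ones. Of the IRG members on chromosome 11, Irgm1 had close means and Igtp had a lower mean with desIgf1. Gbp7, Gbp4, Gbp8 and Igtp each differed in sign between pairs. Gbp2 had the largest log2 fold change of the 8, and Gbp3 was the 1 member whose groups did not overlap.

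Gbp2 targets pathogen vacuoles and is among the GBPs that carry a lipid anchor. The desIgf1 libraries 1 to 3 held it at 122, 123 and 66.6 CPM, against 477, 643 and 96.7 CPM in control libraries 1 to 3. Controls 1 and 2 stood far above every other library, and control 3 lay inside the range of the desIgf1 libraries, so the groups overlapped. The log2 fold change of desIgf1 over control was -1.96 ± 0.64 (SE), from means of 104 ± 32.4 and 406 ± 280 CPM (SD, n = 3 each). Within pairs the log2 difference was -1.96 in number 1, -2.39 in number 2 and -0.54 in number 3. Thus desIgf1 was the lower library of all 3 pairs, by a much smaller amount in number 3. Without both number 3 libraries the log2 fold change was -2.19. Gbp2 alone made up 26.6 to 35.7% of the summed CPM of the 8 members in desIgf1 libraries, and 36.4 to 68.5% in controls. In these bulk libraries fewer expressing cells and less RNA per cell cannot be told apart.

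Gbp3 is a neighbour of Gbp2 and likewise a GTPase of the cytosol and vacuole membranes. Its values were 18.2, 21.3 and 13.2 CPM with desIgf1 (libraries 1 to 3), against 29.3, 49.6 and 21.6 CPM in controls 1 to 3. The lowest control was just above the highest desIgf1 library. Its log2 fold change was -0.93 ± 0.32, and the pair differences were -0.68, -1.22 and -0.71 in numbers 1 to 3. Without control 2, the highest library, the log2 fold change was -0.53, and without both number 3 libraries it was -0.99.

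Gbp7, which is known from mouse macrophages for a part in assembly of the NADPH oxidase, had 17.9, 18.1 and 11.0 CPM with desIgf1 (libraries 1 to 3), against 17.5, 41.3 and 12.7 CPM in controls 1 to 3. Control 2 alone was high, and the other 5 libraries ran from 11.0 to 18.1 CPM. Within pairs the log2 difference was 0.03, -1.19 and -0.20 in numbers 1 to 3. The log2 fold change of -0.61 ± 0.43 turned to 0.05 without control 2, and it was -0.71 without both number 3 libraries. The sum of Gbp2, Gbp3 and Gbp7 was 158, 162 and 90.8 CPM with desIgf1, against 524, 734 and 131 CPM in controls, which is 0.302, 0.221 and 0.694 times the control of the same number.

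The chromosome 5 GBPs, which are less well characterised, had the opposite sign. Gbp4 had 29.9, 25.4 and 19.1 CPM with desIgf1 (libraries 1 to 3), against 21.5, 14.6 and 20.1 CPM in controls 1 to 3, a log2 fold change of 0.40 ± 0.21. Gbp8 had 12.6, 10.7 and 10.3 CPM with desIgf1, against 5.68, 4.60 and 10.7 CPM in controls, a log2 fold change of 0.69 ± 0.32. Controls 1 and 2 were the low libraries of Gbp8, and control 3 lay among the desIgf1 libraries. Gbp9 had 10.2, 8.64 and 6.93 CPM with desIgf1, against 7.30, 4.25 and 5.81 CPM in controls, a log2 fold change of 0.57 ± 0.26. The groups of Gbp9 overlapped by the lowest desIgf1 and the highest control library only, and desIgf1 was the higher library of all 3 pairs. In pair 3 the differences of Gbp4 and Gbp8 were -0.07 and -0.05, against 0.47 and 1.14 in pair 1 and 0.80 and 1.21 in pair 2. Without both number 3 libraries the log2 fold changes of Gbp4, Gbp8 and Gbp9 were 0.62, 1.183 and 0.71. Leaving out desIgf1 library 1 or control 2 gave 0.25 for Gbp4 in either case, and leaving out control 3 gave 1.12 for Gbp8. With desIgf1 the sum of Gbp4, Gbp8 and Gbp9 was 1.53, 1.91 and 0.994 times the control of the same number.

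Irgm1, a regulatory IRG that protects the cell's own membranes from the effector IRGs, was the most even member. It had 54.3, 52.4 and 57.1 CPM with desIgf1 (libraries 1 to 3), against 52.7, 44.1 and 53.5 CPM in controls 1 to 3. The ranges overlapped, and the log2 fold change was 0.12 ± 0.11, with 0.14 without both number 3 libraries and 0.04 to 0.17 without any 1 library. Igtp (also Irgm3), another regulatory IRG, had 109, 85.6 and 65.9 CPM with desIgf1, against 135, 137 and 44.6 CPM in controls. Both number 3 libraries were the lowest of their group, and the pair differences were -0.31, -0.68 and 0.56, beside a fitted log2 fold change of -0.28 ± 0.41. Without both number 3 libraries it was -0.49, without control 3 alone -0.65, and without control 1 or control 2 it was -0.07 or -0.05.

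**Figure D2:**
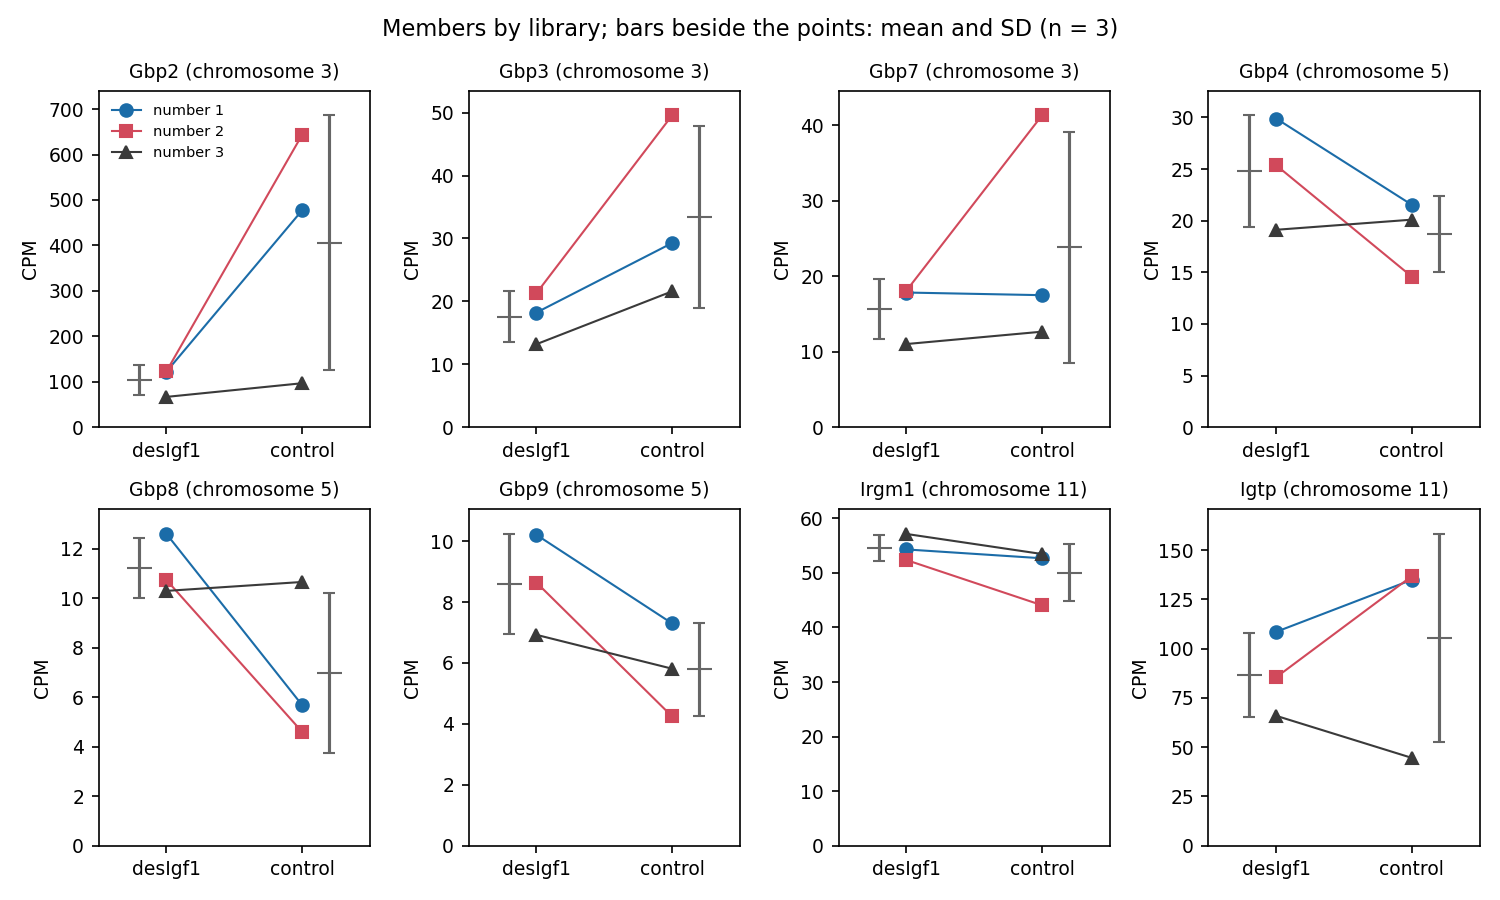
CPM (vertical axes, from 0) of the 8 measured members in desIgf1 libraries (left) and control libraries (right); lines join libraries of the same number, and the bars beside the points give the mean and SD of 3 libraries. Gbp2 is high in controls 1 and 2 only, at 477 and 643 CPM, and the chromosome 5 genes Gbp4, Gbp8 and Gbp9 are lower in those 2 controls than in their desIgf1 partners.

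With edgeR's quasi-likelihood test, 0 of the 8 members were called at an adjusted p under 0.05, where 0% of 13846 genes were. At an unadjusted p under 0.05 there were 2 of 8, Gbp2 and Gbp3, where 8.16% of all genes were. DESeq2 called 0 of 8 (1.48% of all genes), limma voom 0 of 8 (0% of all genes), and edgeR with the replicate number as a block 0 of 8 (0.318% of all genes, 44 in number). The groups did not overlap in 1 of 8 members and in 13.5% of all genes, and all 3 pairs had 1 direction in 4 of 8 members (2 lower and 2 higher) and in 38.0% of all genes. Without both number 3 libraries, edgeR called 1 of 8, Gbp2 (0.0858% of all genes), and with the block as well it called 5 of 8 (7.64% of all genes), namely Gbp2, Gbp3 and Igtp as lower and Gbp4 and Gbp8 as higher. With the family chosen on results of this contrast, nothing is read from these counts.

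**Figure D3:**
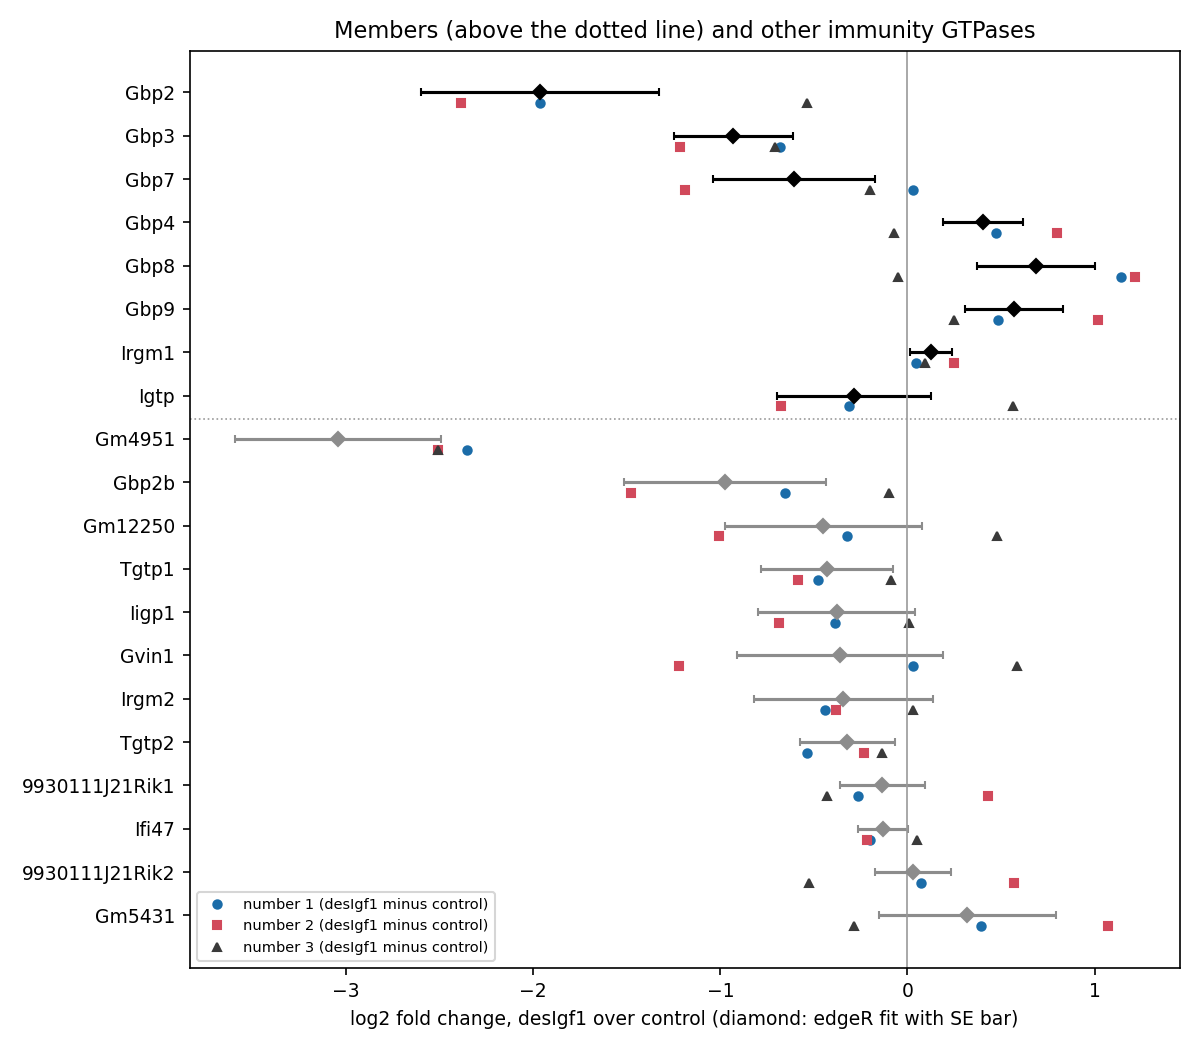
Log2 fold change of desIgf1 over control (horizontal axis) for the 8 members, above the dotted line, and 12 other immunity GTPases; diamonds with bars are the edgeR estimate and its SE, and the small symbols are the differences within library numbers 1, 2 and 3. Gbp2, at -1.96, has the lowest estimate of the members, and in Igtp, Gbp4 and Gbp8 the number 3 pair lies on the other side of 0 from the other 2.

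Levels per length place the members on 1 scale, as CPM per kilobase of GENCODE M21 exons. In desIgf1 libraries the order was Igtp (42.9 ± 10.6), Gbp2 (41.3 ± 12.9), Irgm1 (9.40 ± 0.41), Gbp3 (5.38 ± 1.25), Gbp4 (3.31 ± 0.72), Gbp8 (3.26 ± 0.35), Gbp7 (2.79 ± 0.72) and Gbp9 (1.66 ± 0.32) CPM per kilobase (SD, n = 3). The ranges of Igtp and Gbp2 overlapped, as did those of Gbp4, Gbp8 and Gbp7, and those of Gbp7 and Gbp9 met at their edges, while Irgm1 lay apart from its neighbours on both sides and Gbp3 just above Gbp4. In controls Gbp2 came first, at 161 ± 111, and Igtp was next, at 52.2 ± 26.1 CPM per kilobase, with overlapping ranges. Gbp3 (10.3 ± 4.43), Irgm1 (8.62 ± 0.90), Gbp7 (4.24 ± 2.73), Gbp4 (2.50 ± 0.49) and Gbp8 (2.03 ± 0.94) followed, each with a range that overlapped that of the next except Irgm1 and Gbp7. Gbp9 was the lowest per length in both groups, at 1.12 ± 0.30 in controls.

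Across the 6 libraries the chromosome 3 members followed each other and ran against those of chromosome 5. Pearson's r of log2 CPM was 0.82 to 0.93 among Gbp2, Gbp3 and Gbp7 (3 pairs of genes) and 0.71 to 0.97 among Gbp4, Gbp8 and Gbp9, and it was -0.93 to -0.43 for the 9 pairs between these sets. Irgm1 had r of -0.96 with Gbp7 and -0.95 with Gbp3, while Igtp had 0.80 with Gbp2. These values describe 6 libraries that include the group difference and the difference of the number 3 libraries, and the points share library and depth.

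**Figure D4:**
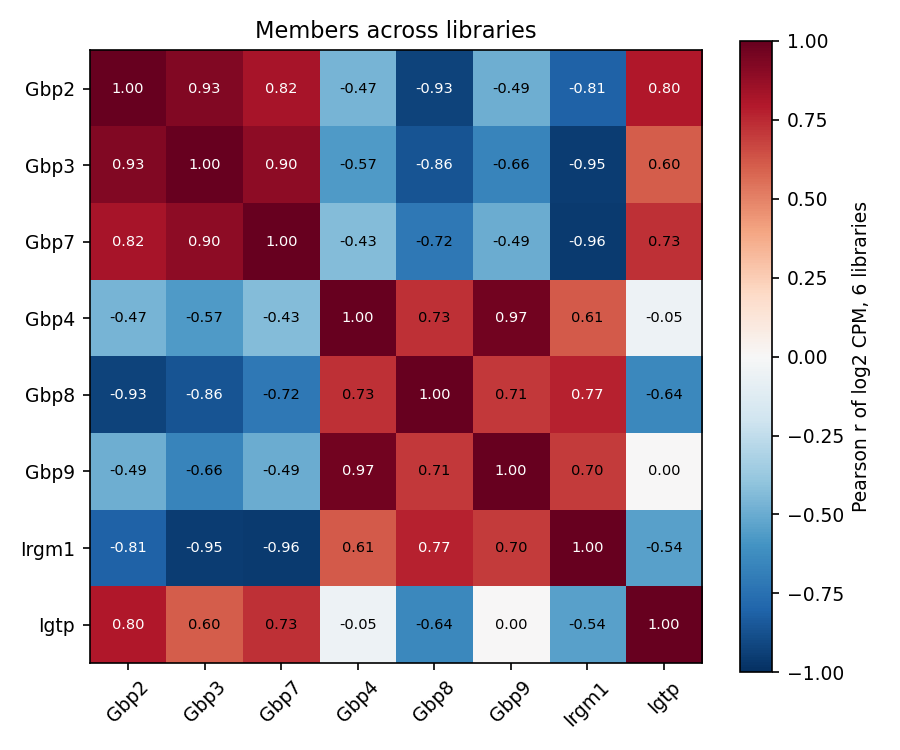
Pearson correlation of log2 CPM across 6 libraries between members, ordered by chromosome (3, 5, 11); red is positive and blue negative, from -1 to 1. Gbp2, Gbp3 and Gbp7 form 1 positive square and Gbp4, Gbp8 and Gbp9 another, with negative values between them.

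How far reads can be placed differs among the members. Of the 50-base words in each gene's GENCODE M21 transcripts, the share that also occurs in transcripts of another gene was 2.03% for Gbp2, 3.75% for Gbp3, 12.7% for Gbp7, 7.78% for Gbp4, 18.1% for Gbp8, 8.05% for Gbp9, 0.38% for Irgm1 and 11.8% for Igtp. Reads that matched several places stood in a summary line and not in genes, and the effect of this on the levels was not tested. The annotated exons of Gbp4, Gbp8 and Gbp9 overlap each other over 0.81 to 1.77% of their length, and those of Igtp overlap Irgm2 over 8.01%. Gbp6 shares 70.7% of its words. The identifier that M21 names Gm43302 spans the Gbp6 and Gbp10 loci (chromosome 5, 105214907 to 105293695), shares all its words with other genes, and had 84, 49 and 139 counts in desIgf1 libraries 1 to 3, against 49, 27 and 93 in controls 1 to 3. It is not taken as a measure of Gbp6.

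Other immunity GTPases that are not members were counted as a list of 15, of which 14 had a row and 12 were tested. None of the 12 was called by edgeR, with or without the block. Of the 12, 1 had an unadjusted p under 0.05 (8.16% of all genes), and DESeq2 called 1 (1.48% of all genes). Of the 12, 10 had a negative log2 fold change, as had 7045 of 13846 tested genes, and the median was -0.35, against -0.01 over all tested genes. Gvin1, 9930111J21Rik1, 9930111J21Rik2, Gm5431, Tgtp1 and Tgtp2 of this list share 37.3 to 99.2% of their words with other genes, so their levels are uncertain. This list and those below were chosen with earlier results of these data known, so nothing is read from their counts. Without both number 3 libraries the medians were -0.46 in this list and 0.02 over all genes tested in both fits. Gbp2b (also Gbp1), which lies beside Gbp2, had 93.1, 104 and 54.8 CPM with desIgf1 (libraries 1 to 3), against 147, 290 and 58.8 CPM in controls 1 to 3. As in Gbp2, control 2 was the highest library and both number 3 libraries the lowest (log2 fold change -0.98 ± 0.54, edgeR adjusted p = 0.645, and 0.284 with the block). Its window held 1 ISRE match, 137 to 128 bases before the start.

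Irgm2, the third regulatory IRG, had 36.8, 24.5 and 14.8 CPM with desIgf1, against 49.97, 31.95 and 14.5 CPM in controls (log2 fold change -0.34 ± 0.48, edgeR adjusted p = 0.852). It is the gene whose exons overlap Igtp, and like Igtp it was lowest in both number 3 libraries. Ifi47, another IRG, was at 101.1 ± 8.51 CPM with desIgf1 and 111 ± 16.4 CPM in controls (SD, n = 3 each; log2 fold change -0.13 ± 0.13, edgeR adjusted p = 0.788). The near-identical Tgtp1 and Tgtp2 share 81.2% and 86.6% of their words with other genes, so their low levels of 5.13 to 14.6 CPM are uncertain. Gm4951 had 5, 2 and 2 counts in desIgf1 libraries 1 to 3, against 38, 21 and 16 in controls 1 to 3, with no overlap. Its log2 fold change was -3.04 ± 0.55 (edgeR adjusted p = 0.261, 0.0706 with the block), and DESeq2 gave an adjusted p of 0.0126. Outside the members, 9 of the listed GTPases matched a window in the table of promoters, of which 6 held an ISRE match and 4 of those a GAS match too.

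Genes that carry the interferon signal had log2 fold changes from -0.14 to 0.70. Of 20 ligands, receptors and signalling genes, 18 were tested and 0 were called by edgeR with or without the block. Of the 18, 2 had an unadjusted p under 0.05 (8.16% of all genes), and DESeq2 called 2 (1.48% of all genes). The median log2 fold change was 0.06, and 0.15 without both number 3 libraries. Ifng itself, whose protein was neutralised in all cultures and whose reporter was sorted against, had 11, 1 and 11 counts in desIgf1 libraries 1 to 3, against 28, 3 and 5 in controls 1 to 3, and Ifnb1 had 0 in all. Irf1, an interferon-induced transcription factor, was at 99.1, 74.5 and 61.1 CPM with desIgf1, against 100.3, 66.7 and 66.1 CPM in controls (log2 fold change 0.01 ± 0.23, edgeR adjusted p = 0.992). In Irf1 both number 1 libraries were the highest of their group.

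The 2 genes that DESeq2 called in this list were both higher with desIgf1. Jak2, the kinase of the IFN-γ receptor, was at 942 ± 128 CPM with desIgf1 and 639 ± 35.2 CPM in controls, without overlap (log2 fold change 0.56 ± 0.12, edgeR adjusted p = 0.333, DESeq2 0.0184). Irf8, an interferon-induced factor that pairs with IRF1, was at 51.6 ± 4.06 CPM with desIgf1 and 31.7 ± 5.36 CPM in controls, without overlap (log2 fold change 0.70 ± 0.15, edgeR adjusted p = 0.316, DESeq2 0.00640). Ifngr1, a receptor chain, had 279, 314 and 146 CPM with desIgf1 (libraries 1 to 3), against 224, 206 and 174 CPM in controls 1 to 3, and its groups overlapped. Socs1, the feedback inhibitor of the receptor, was at 149, 102 and 50.9 CPM with desIgf1, against 131, 77.0 and 42.6 CPM in controls, with the number 3 libraries lowest in both groups.

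Of 25 other genes known to be induced by IFN-γ, 20 were tested, and 0 were called by edgeR with or without the block or by DESeq2. Of the 20, 5 had an unadjusted p under 0.05 (4 higher, 1 lower), where 8.16% of all genes had. In this list 15 of 20 log2 fold changes were positive, as were 6801 of 13846 over all tested genes, and the groups did not overlap in 8 of 20, against 13.5% of all tested genes. The median was 0.20, and 0.25 without both number 3 libraries. All 3 pairs had 1 direction, lower or higher, in 17 of 20 genes of the list, against 38.0% of all tested genes. With the list chosen when earlier results of these data were known, nothing is read from these counts. Most genes of antigen presentation in the list had positive log2 fold changes, and Psmb10, Psme1 and Ciita had negative ones. H2-K1, B2m and Tap1 were higher with desIgf1 in all 3 pairs. H2-K1, a class I heavy chain, was at 868 ± 105 CPM with desIgf1 and 663 ± 84.0 CPM in controls (log2 fold change 0.39 ± 0.14, edgeR adjusted p = 0.531). B2m was at 673 ± 53.3 and 529 ± 46.9 CPM in desIgf1 and control libraries (log2 fold change 0.35 ± 0.11, edgeR adjusted p = 0.505). Tap1, a peptide transporter, was at 240 ± 9.64 CPM with desIgf1 and 203 ± 3.72 CPM in controls. The immunoproteasome gene Psmb10 had a log2 fold change of -0.12 ± 0.11 and was lower with desIgf1 in all 3 pairs. The proteasome activator gene Psme1 had -0.05 ± 0.095, and Ciita, the class II transactivator gene, had -0.03 ± 0.40. Wars, a tryptophan tRNA synthetase gene induced by IFN-γ, was at 87.8 ± 12.04 CPM with desIgf1 and 129 ± 20.3 CPM in controls (log2 fold change -0.55 ± 0.15, edgeR adjusted p = 0.451). The chemokine genes Cxcl9 and Cxcl10 had 0 to 16 counts per library and were not tested.

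All of 18 genes that place GBPs and IRGs on membranes or act with them were tested. By edgeR with or without the block, or by DESeq2, 0 were called. Of the 18, 2 had an unadjusted p under 0.05, where 8.16% of all genes had. The median log2 fold change was 0.10, and 0.18 without both number 3 libraries. Gabarapl1, of the ATG8 family that guides IRGs to vacuoles, was at 66.1 ± 4.18 CPM with desIgf1 and 94.9 ± 15.4 CPM in controls (log2 fold change -0.52 ± 0.14, edgeR adjusted p = 0.417). Casp4, the gene of the caspase that GBPs help to activate on bacterial lipopolysaccharide, was at 42.6 ± 1.72 CPM with desIgf1 and 36.6 ± 2.20 CPM in controls (log2 fold change 0.22 ± 0.10, edgeR adjusted p = 0.620). Nlrp3 was at 0.53 ± 0.25 and 0.13 ± 0.09 CPM in desIgf1 and control libraries (log2 fold change 2.01 ± 0.61, edgeR adjusted p = 0.497).

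**Figure D5:**
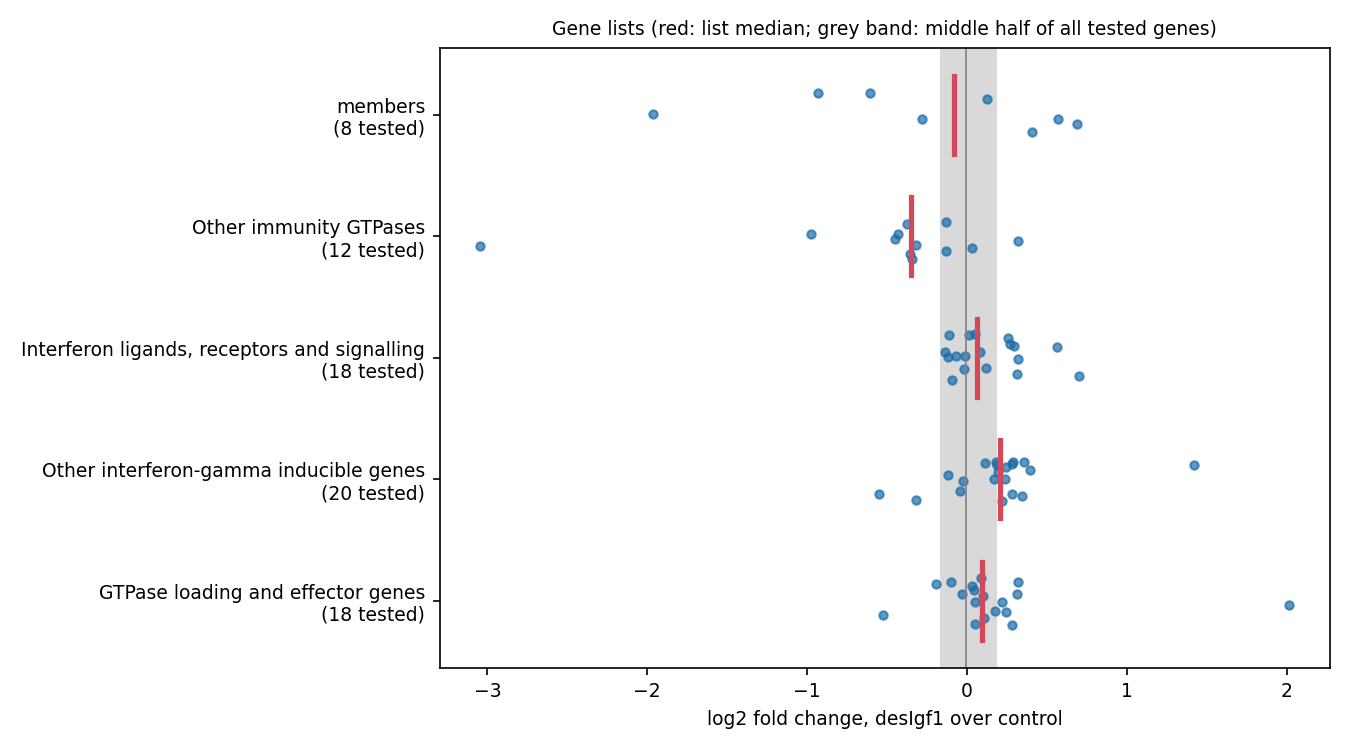
Log2 fold change of desIgf1 over control (horizontal axis) of each tested gene in 5 lists, 1 point a gene with vertical scatter only for legibility; red bars are list medians and the grey band spans the lower to the upper quartile of all tested genes. The members spread from -1.96 to 0.69 around a median of -0.08, and the other IFN-γ inducible genes have a median of 0.20.

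Markers of other cells in the culture were low. The 25 markers of B cells, macrophages and monocytes, dendritic cells, NK cells, CD8 T cells and neutrophils summed to 25.1, 30.3 and 30.7 CPM in desIgf1 libraries 1 to 3, against 19.8, 21.8 and 24.3 CPM in controls 1 to 3 (2-sided exact permutation p = 0.1, the smallest that 3 against 3 can give). Fcgr1, Xcr1, Siglech and Ncr1 were at 0 in all 6 libraries, while markers of the same cell types were detected. Lyz2 ran from 1.40 to 7.64 CPM, Cd68 from 2.15 to 7.77 CPM and Cd8b1 from 3.22 to 10.9 CPM. These were the high genes of their lists. Cd8a, the other CD8 T cell marker, had 0 to 5 counts per library. Csf1r, Adgre1, Tyrobp and Fcer1g, listed with Lyz2 and Cd68, ran from 0 to 0.70 CPM. Klrb1c ran from 1.90 to 2.48 CPM and Eomes from 0.16 to 3.44 CPM. Macrophage and monocyte markers were lowest in control 3, at 4.78 CPM, against 11.5 to 12.3 CPM in controls 1 and 2 and 9.76 to 14.8 CPM with desIgf1. Of the Th1 genes, which include Ifng, Tbx21, Cxcr3 and Il12rb2, the sum was 36.0, 53.0 and 25.4 CPM in desIgf1 libraries, against 69.1, 51.7 and 20.8 CPM in controls (exact permutation p = 0.7). Il12rb2 made up most of this sum, with 33.4, 52.1 and 21.1 CPM in desIgf1 libraries against 65.4, 50.2 and 13.0 CPM in controls. Cxcr3 was highest in both number 3 libraries, at 3.31 CPM with desIgf1 and 6.36 CPM in the control, and Tbx21 was lowest in both number 2 libraries. The part of other cells in the levels of the members was not tested.

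The genes most like the members were ranked by Pearson's r over the 6 libraries with the mean of the members' centred log2 CPM, which was 0.13, 0.03 and -0.39 in desIgf1 libraries 1 to 3 and 0.23, 0.30 and -0.31 in controls 1 to 3. Among 11708 genes at a mean of 1 CPM or more, the first 8 were 5430416N02Rik, Ube2q2, Dgkk, Rps16, Txndc12, Saal1, Raph1 and Lrp6, with r of 0.98 to 0.99. Since the mean joins members of opposite sign, it mainly sets the number 3 libraries below the rest. Dgkk, a diacylglycerol kinase, had the lowest log2 fold change of the 8 (-2.01), with 2.003, 0.57 and 0.06 CPM under desIgf1 (libraries 1 to 3), against 3.97, 6.45 and 0.11 CPM in controls 1 to 3. The other 7 had log2 fold changes from -0.23 to -0.04.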

How the data were processed

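RNA was measured by sequencing in 3 desIgf1 and 3 control libraries of sorted Th17 cells. The deposited values are raw counts per gene, with no normalization, and 5 summary lines per file that name no gene were left out (13.5 to 15.7% of uniquely placed reads in no gene, 0.712 to 0.761% ambiguous; 46.4 to 48.7% of entries were not unique). The submitters' processing notes name HTSeq (0.7.2) for counting, STAR (2.5.3) and Trim Galore (0.4.5), along with R (3.4.3), SAMtools (0.1.18) and DESeq2 (1.18.1), without saying in what order. Strand setting and annotation release: not given in the sources used here. Overlapping genes are therefore uncertain.

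GENCODE M21 on GRCm38 gave gene symbols, exon lengths and positions for 37607 of 39179 identifiers. Genes were tested with edgeR 4.0.16 (TMM, robust quasi-likelihood test, 13846 genes left by filterByExpr at a minimum count of 10, Benjamini-Hochberg over all of them, threshold 0.05) in R 4.3.3. The SE is the log2 fold change divided by the square root of F. CPM use TMM factors, and log2 CPM has a prior count of 2. DESeq2 1.42.0 and limma 3.58.1 (voom) were alternatives, and the code was tested on simulated data. Motif positions count back from the RefSeq start.

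As a check of pairing, each library's deviation from its group mean was correlated across genes with that of its number partner, giving 0.593, 0.318 and 0.555 for numbers 1 to 3, and Xist was at 2219 and 1705 CPM in the number 1 desIgf1 and control libraries and under 1 CPM in the other 4. No label states the pairing; it rests on these values. The named genes were the 10 members, genes of 4 lists and the 8 genes most like the members. The members and lists were chosen with earlier results of these data known. Leaving out both libraries of a number without the block was added after seeing the data.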

Additional observations from a re-analysis of the deposited data

How the results depend on the processing

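Over all genes edgeR called 0, and so did DESeq2's size factors in edgeR, limma voom and each fit without 1 library (0 to 0). DESeq2 called 208, no filter on low counts 16 and the replicate block 44. Leaving out number 1, 2 or 3 from the blocked fit gave 72, 620 and 1069 genes, and leaving out both number 3 libraries with no block, which was chosen after seeing the data, gave 12; the same without both number 1 or both number 2 libraries gave 0 and 0. Among the members the count was 0, except 1 (Gbp3) with the block without number 2, 5 with the block without number 3, and 1 (Gbp2) without both number 3 libraries and no block. In the other GTPase, interferon and effector lists it was 0, except 3 by DESeq2 and 6 and 10 with the block without numbers 2 and 3. Fits with fewer libraries have fewer residual degrees of freedom, and the cause of the larger counts was not tested. Over 17 alternatives each, the log2 fold change of Gbp2 ran from -2.43 to -1.26, of Gbp3 from -1.17 to -0.53, of Gbp4 from 0.20 to 0.64, of Gbp8 from 0.46 to 1.19, of Gbp9 from 0.37 to 0.77 and of Irgm1 from 0.04 to 0.17, with no change of sign. Gbp7 ran from -0.91 to 0.05 and Igtp from -0.65 to 0.12, each with 1 change of sign, in Gbp7 without control 2 and in Igtp with the block without number 2. With the block and all libraries the values were -1.64 ± 0.35 for Gbp2, -0.87 ± 0.15 for Gbp3 and 0.77 ± 0.29 for Gbp8. The difference in summed markers of other cells was 6.71 CPM, and 5.61 to 8.49 CPM without 1 library. The block changed no call of a member or list with all 6 libraries.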
